A study of Homo sapiens with 6 samples.

Results

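Focal adhesion and integrin genes were examined in PANC-1, a cell line established from a human pancreatic carcinoma. The 38 genes were taken by symbol from the 60612 genes of the deposited table: 9 integrin subunits, 3 integrin activators, 10 adaptors, kinases and a protease, 13 actin linkers and LIM-domain proteins, and 3 proteins of the adhesion rim and caveolae. Poly(A) RNA was sequenced in 3 libraries of cells given 50 µM D(+)-raffinose pentahydrate, a plant trisaccharide, for 24 h, and in 3 libraries of PANC-1 cells with no compound, vehicle or time named. Both groups are one cell line kept in serum-supplemented DMEM with penicillin and streptomycin. The series title names PI3K/AKT signalling, apoptosis and proliferation as its subject, and the labels name no separate cultures for the replicates, so the p-values below rest on a spread that may be technical.

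Integrins are heterodimers of an alpha and a beta subunit that bind matrix proteins outside the cell. Talin and the kindlins bind the beta tail inside the cell and switch the receptor on. Paxillin, p130Cas, the kinases FAK and SRC and the pseudokinase ILK then gather there and signal, among others, to PI3K and AKT. Vinculin, the alpha-actinins, filamin and zyxin tie the plaque to actin filaments. Many of the actin linkers are known targets of serum response factor (SRF), which binds a DNA element called the CArG box.

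Total counts per library lay between 59723420 and 66063664, and 18863 genes were tested, of which 37 of the 38 members passed the filter on low counts. For one gene across libraries the unit is CPM, the count scaled to library size with TMM factors. Comparisons of level between genes use FPKM, which is also divided by gene length. As a check of the label, the keratins KRT8 and KRT18 and vimentin averaged 2240, 1416 and 4434 CPM in raffinose libraries and 3291, 1944 and 5164 CPM in untreated ones, while the epithelial markers KRT19 and EPCAM were under 1 FPKM in both groups.

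No member passed the test. By edgeR's quasi-likelihood test with Benjamini-Hochberg adjustment over all genes, 0 of 37 members were called in either direction, where 0.0371% of all tested genes were called higher and 0.0848% lower. At an unadjusted p under 0.05, 15 members were lower in raffinose libraries and 2 higher, against 7.08% and 6.21% of all genes. DESeq2 called 9 members lower and 0 higher, against 1.92% and 1.28% of all genes. The 9 were ACTN1, MISP, BCAR3, TGFB1I1, BCAR1, ACTN4, TNS3, ZYX and ITGB4. limma on log2(FPKM + 1) called 0 members. Fewer cells of a type and less RNA per cell cannot be told apart in bulk libraries.

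Of the 37 tested members, 30 had a negative log2 fold change, and their median was -0.15, beside 0.01 over all tested genes. In 16 members every raffinose library lay below every untreated library (43.2% of the members), where 10.9% of all tested genes, and 14.6% of genes with a mean of at least 10 CPM, did so. In 3 members (8.11%) every raffinose library lay above every untreated one, where 10.6% of all tested genes, and 11.2% of genes with a mean of at least 10 CPM, did so. The 13 actin linkers and LIM proteins had a median of -0.29 with 8 such lower members, and the 10 adaptors, kinases and protease -0.14 with 6. The 5 integrin alpha subunits had a median of 0.08 with 0 lower members, and the 3 tested beta subunits -0.0045 with 1. The 3 activators had a median of -0.09 with 1 lower member, and the 3 genes of the rim and caveolae -0.03 with 0. Whether these role groups differ was not tested. The members were chosen with earlier results of these data known, which limits their comparison with all genes.

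**Figure D1:**
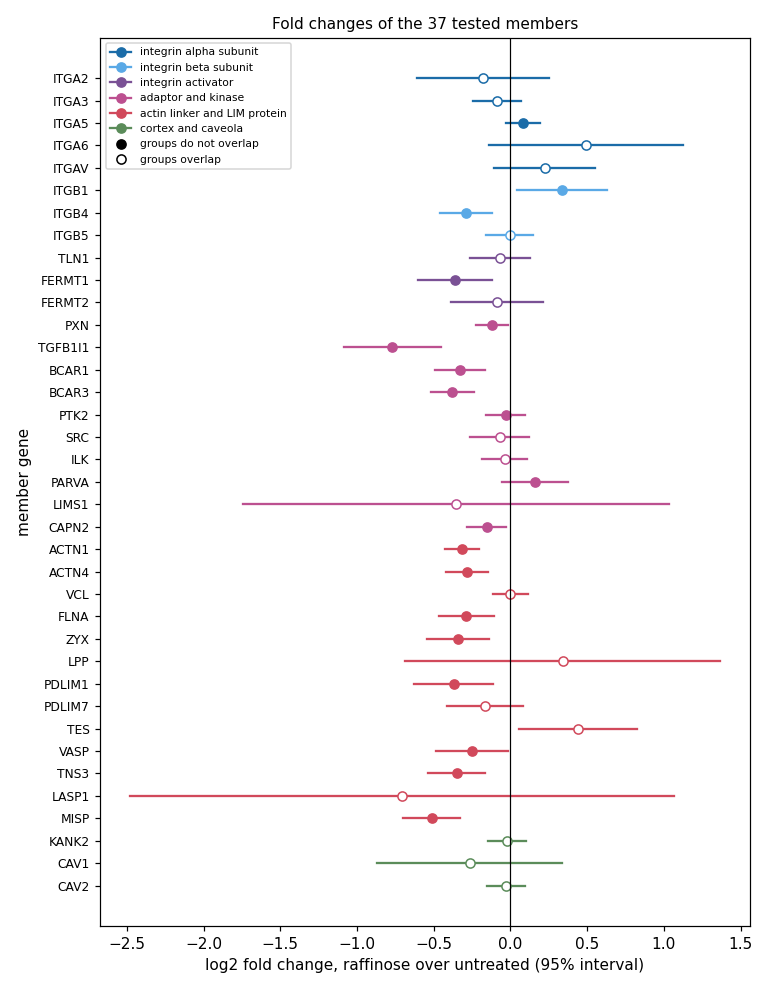
Log2 fold change of raffinose over untreated with its 95% interval for the 37 tested members, coloured by role. Filled points mark members whose groups do not overlap in CPM. Most filled points among adaptors and actin linkers lie left of 0, and the widest intervals belong to LASP1, LIMS1 and LPP.

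The separation of groups depended on the scaling in PTK2, FLNA, VASP and TES. On the deposited FPKM scale, 13 members had all raffinose libraries below all untreated ones, where 8.98% of all tested genes did, and 4 had them above, where 13.5% did. PTK2, FLNA and VASP overlapped there, while TES overlapped in CPM but not in FPKM. Summed over all 38 members, the level was 10437 to 11371 CPM in raffinose libraries and 11410 to 12519 CPM in untreated ones.

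Promoter sequence is shown for ACTN1, TGFB1I1, FLNA and CAPN2 because these members had lower values in all raffinose libraries and hold a CArG box near a start site, and for TES because it holds one and had a higher mean. LPP also holds one and had a higher mean, but its libraries split within a group and its promoter is not shown. RefSeq promoters (GRCh38.p14, 250 bases before to 50 after a start) matched 32 members, and 7 of these (21.9%) held the box, in a search that reads the same on both strands, against 1.60% of 27305 genes with a promoter entry. The 7 were ACTN1, TGFB1I1, FLNA, CAPN2, TES, LPP and ITGB6, the last of which was not expressed enough to be tested. A gene was counted if any of its entries held the box, so genes with more entries had more chances. LPP has 7 entries and ITGB6 1, and the 27305 genes have 35116 together. Among the 16 members with non-overlapping lower values, 13 had a promoter entry and 4 held the box. Of the 3 with non-overlapping higher values, 2 had an entry and 0 held it, and among 16 overlapping members with an entry 2 did. Whether the box goes with the direction of a member was not tested. ACTN1 has 4 promoter entries, TGFB1I1 3, CAPN2 2, TES 2 and FLNA 1, with the box in 1 entry of each, and the table does not say which start was used. The entry shown is chr14:68977517-68977816 on the minus strand for ACTN1, chr16:31472955-31473254 on the plus strand for TGFB1I1, chrX:154374585-154374884 on the minus strand for FLNA, chr1:223701347-223701646 on the plus strand for CAPN2 and chr7:116222703-116223002 on the plus strand for TES. The entries shown for ACTN1, TGFB1I1 and TES lie inside the deposited gene span, and those for FLNA and CAPN2 cross its 5′ end. Each entry is written 5′ to 3′ along the gene, with the CArG box in capitals.
ACTN1: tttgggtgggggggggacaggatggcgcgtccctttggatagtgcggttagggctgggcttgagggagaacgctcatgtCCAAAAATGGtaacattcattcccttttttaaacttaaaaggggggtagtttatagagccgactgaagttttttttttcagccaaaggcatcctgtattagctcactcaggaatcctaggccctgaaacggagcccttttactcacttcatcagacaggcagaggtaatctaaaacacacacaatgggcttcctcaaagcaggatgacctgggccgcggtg
TGFB1I1: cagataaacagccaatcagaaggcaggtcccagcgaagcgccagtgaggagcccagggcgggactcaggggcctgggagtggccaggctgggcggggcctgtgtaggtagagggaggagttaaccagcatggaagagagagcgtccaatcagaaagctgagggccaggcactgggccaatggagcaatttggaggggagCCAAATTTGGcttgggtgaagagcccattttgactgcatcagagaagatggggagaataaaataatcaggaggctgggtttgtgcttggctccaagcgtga
FLNA: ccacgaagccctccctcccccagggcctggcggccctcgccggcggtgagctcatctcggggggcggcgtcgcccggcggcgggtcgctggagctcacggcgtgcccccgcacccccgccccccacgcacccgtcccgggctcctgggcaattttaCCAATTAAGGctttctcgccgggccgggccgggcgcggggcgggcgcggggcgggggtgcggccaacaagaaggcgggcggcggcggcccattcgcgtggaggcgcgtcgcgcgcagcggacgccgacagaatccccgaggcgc
CAPN2: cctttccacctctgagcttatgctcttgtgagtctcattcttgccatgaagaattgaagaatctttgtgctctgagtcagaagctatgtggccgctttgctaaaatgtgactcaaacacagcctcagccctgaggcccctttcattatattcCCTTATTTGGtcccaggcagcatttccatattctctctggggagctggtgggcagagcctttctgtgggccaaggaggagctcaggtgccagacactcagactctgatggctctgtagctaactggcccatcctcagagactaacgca
TES: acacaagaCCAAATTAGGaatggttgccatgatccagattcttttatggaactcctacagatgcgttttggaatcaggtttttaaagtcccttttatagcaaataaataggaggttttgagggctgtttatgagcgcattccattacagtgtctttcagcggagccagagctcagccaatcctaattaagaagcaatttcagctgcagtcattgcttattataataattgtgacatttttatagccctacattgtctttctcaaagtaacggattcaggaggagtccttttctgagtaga
The box begins at position -171 from the start in ACTN1, -51 in TGFB1I1, -94 in FLNA, -98 in CAPN2 and -242 in TES. A second motif, the TEAD core GGAATG read on both strands, occurred in 8 of the 32 members (25.0%) and in 16.7% of all genes with an entry. These matches describe the letters of the window and say nothing of binding in these cells.

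Among the receptors, PANC-1 cells transcribed a set dominated by the beta1 chain. Of the 26 integrin subunit genes examined, 10 reached a mean of 1 FPKM in a group. ITGB1, the beta1 chain that pairs with most alpha subunits, was the highest, at 170 ± 7.50 FPKM with raffinose and 132 ± 24.4 FPKM without (SD, n = 3 per group here and below). ITGA3, a laminin-binding alpha chain, averaged 61.4 ± 3.28 and 63.6 ± 5.42 FPKM, and ITGB5, a partner of the alphaV chain, 49.4 ± 2.50 and 48.3 ± 1.93 FPKM with and without raffinose. Below these came ITGA6, ITGA5 and ITGAV, whose FPKM ranges over the 6 libraries overlapped, and then ITGB4 and ITGA2, which overlapped each other.

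**Figure D2:**
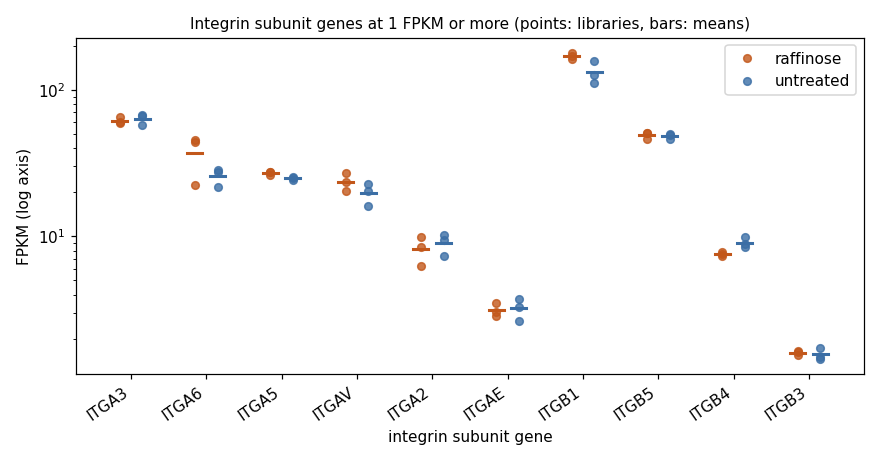
FPKM on a log axis of the 10 integrin subunit genes with a mean of at least 1 FPKM in a group. Points are single libraries, raffinose left of untreated, and bars are group means. ITGB1 lies highest, and ITGAE and ITGB3 are the only 2 genes shown that are not members.

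ITGB1 (ENSG00000150093, chromosome 10, 32900318 to 33005792, minus strand) was at 1208, 1287 and 1143 CPM in raffinose libraries and at 824, 1141 and 920 CPM in untreated libraries. The groups just failed to overlap, since the lowest raffinose library stood 1143.3 against 1141.4 CPM in untreated replicate 2. This gave a log2 fold change of 0.33 (SE 0.12, 95% interval 0.04 to 0.63) and an edgeR adjusted p of 0.322. ITGA5, the fibronectin-binding alpha chain, was at 240.0, 233 and 235 CPM with raffinose and at 223, 225 and 222 CPM without, and its groups did not overlap either. Its log2 fold change was 0.08 (SE 0.05, edgeR adjusted p = 0.512).

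ITGA6, a laminin receptor chain that pairs with beta1 or beta4, split within the raffinose group. It was at 179, 355 and 355 CPM in raffinose libraries and at 181, 228 and 222 CPM in untreated ones. Raffinose replicates 2 and 3 were above all untreated libraries and replicate 1 was below them. Its log2 fold change was 0.49 (SE 0.26, edgeR adjusted p = 0.485), and 0.75 without raffinose replicate 1 (edgeR adjusted p = 0.220).

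ITGB4, the hemidesmosome chain and partner of alpha6, was at 58.5, 61.5 and 62.1 CPM with raffinose and at 71.1, 71.8 and 80.2 CPM without. All raffinose libraries were lower, with a log2 fold change of -0.29 (SE 0.07, edgeR adjusted p = 0.198, DESeq2 adjusted p = 0.0490). ITGB4 overlaps GALK1 on the opposite strand, which had counts of 690 to 958 per library beside 3750 to 4748 for ITGB4, and whether counting used the strand is not given in the sources used here. ITGAV, which binds RGD ligands such as vitronectin, had overlapping groups (log2 fold change 0.22, SE 0.14), as had the collagen receptor chain ITGA2 (-0.18, SE 0.18) and ITGA3 (-0.09, SE 0.06). With libraries left out, ITGAV ran from 0.11 without untreated replicate 1 to 0.32 without untreated replicate 2, and ITGA2 from -0.33 without raffinose replicate 1 to -0.03 without raffinose replicate 2. ITGB5 had a log2 fold change of -0.0045 (SE 0.06, 95% interval -0.16 to 0.15). ITGB6, an epithelial partner of alphaV, had a count of 4 in untreated replicate 3 and 0 in the other 5 libraries, where a count of 0 allows up to 0.186 to 0.203 CPM from counting error alone, taking 3 fragments at about 4 counts each.

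Of the integrin activators, FERMT1, the epithelial kindlin-1, separated the groups. FERMT1 was at 19.2, 22.9 and 18.8 CPM with raffinose and at 26.4, 25.3 and 26.6 CPM without, all raffinose libraries being lower. FERMT1 had a log2 fold change of -0.36 (SE 0.10, edgeR adjusted p = 0.227). Its broadly expressed relative FERMT2 (kindlin-2) was at 60.2, 76.4 and 81.0 CPM with raffinose and at 73.3, 84.4 and 73.9 CPM without, and the groups overlapped. The log2 fold change of TLN1, which encodes talin-1 and links beta tails to actin, was -0.07 (SE 0.08, 95% interval -0.26 to 0.13). In FPKM, TLN1 was the most abundant of the 3, at 39.6 ± 1.79 with raffinose and 40.5 ± 4.72 without.

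Scaffold proteins of the plaque held several of the clearest separations. TGFB1I1 (ENSG00000140682, chromosome 16, 31471585 to 31477960, plus strand) encodes Hic-5, a paxillin relative. It was at 11.9, 10.5 and 9.15 CPM in raffinose libraries and at 19.8, 17.4 and 16.7 CPM in untreated libraries, the most negative log2 fold change of any member, -0.77 (SE 0.13, 95% interval -1.09 to -0.46). The edgeR adjusted p was 0.118 and that of DESeq2 0.000137. Paxillin itself, PXN, had 52.4 ± 1.03 FPKM with raffinose and 55.5 ± 1.31 FPKM without, where TGFB1I1 had 1.63 ± 0.205 and 2.72 ± 0.208 FPKM. PXN was at 469.8, 459 and 459 CPM with raffinose and 499.8, 502 and 507 CPM without (log2 fold change -0.12, SE 0.04, edgeR adjusted p = 0.309).

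BCAR3 (ENSG00000137936, chromosome 1, 93561741 to 93847150, minus strand), an adaptor that binds p130Cas and promotes SRC signalling, was at 36.4, 37.1 and 37.7 CPM with raffinose and at 48.6, 48.6 and 47.4 CPM without. The libraries of each group lay close together and apart from the other group. BCAR3 had a log2 fold change of -0.38 (SE 0.06, edgeR adjusted p = 0.108, DESeq2 adjusted p = 6.5e-05). Its partner BCAR1, which encodes p130Cas, the docking protein phosphorylated by SRC and FAK, was at 98.1, 100.3 and 90.4 CPM with raffinose and at 119.9, 127 and 116 CPM without. BCAR1 was lower in all raffinose libraries, with a log2 fold change of -0.33 (SE 0.07, edgeR adjusted p = 0.153, DESeq2 adjusted p = 0.0116).

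The kinases had small differences between groups. PTK2, which encodes FAK, was at 72.1, 70.5 and 72.0 CPM with raffinose and at 72.4, 72.6 and 74.4 CPM without, with a 95% interval of the log2 fold change of -0.16 to 0.09. SRC had -0.07 (SE 0.08, interval -0.26 to 0.12). ILK, the pseudokinase that joins the PINCH and parvin proteins, had -0.04 (SE 0.06, interval -0.19 to 0.11), and it overlaps TAF10 on the opposite strand. PARVA, its alpha-parvin partner, was higher in all raffinose libraries, at 37.7, 32.0 and 32.3 CPM against 29.5, 31.5 and 30.2 CPM in untreated ones (log2 fold change 0.16, SE 0.09, edgeR adjusted p = 0.497). CAPN2, the calpain that cleaves talin during adhesion turnover, was at 534, 549 and 519 CPM with raffinose and at 583, 625 and 575 CPM without (log2 fold change -0.15, SE 0.05, edgeR adjusted p = 0.307).

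In ACTN1, ACTN4 and FLNA, the actin crosslinkers among the members, all raffinose libraries were below all untreated ones in CPM, but none passed edgeR's test. ACTN1 (ENSG00000072110, chromosome 14, 68874128 to 68979440, minus strand), which encodes alpha-actinin-1, was at 281, 282 and 286 CPM in raffinose libraries and at 353, 345 and 359.6 CPM in untreated libraries. The gap between the groups was wider than the range within either group. The log2 fold change was -0.32 (SE 0.05, 95% interval -0.43 to -0.21), a level lower by 19.7%. This was the smallest adjusted p of any member, 0.0929 by edgeR and 5.4e-05 by DESeq2.

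ACTN4, which encodes alpha-actinin-4 and had the highest FPKM of all members, 231 ± 7.84 with raffinose and 275 ± 20.9 without, was at 1614.5, 1707 and 1697 CPM with raffinose and at 1901, 2081 and 2131.5 CPM without. Its log2 fold change was -0.28 (SE 0.06, edgeR adjusted p = 0.151, DESeq2 adjusted p = 0.0236). FLNA, the gene of the actin crosslinker filamin A, was at 1430, 1480 and 1564 CPM with raffinose and at 1642, 1952 and 1871 CPM without. Its log2 fold change was -0.29 (SE 0.08, edgeR adjusted p = 0.209). For VCL, the gene of vinculin, which reinforces the talin link under tension, the mean was 395 ± 2.64 CPM with raffinose and 395 ± 12.8 CPM without. VCL was at 393, 398 and 395 CPM with raffinose and at 380, 404 and 400 CPM without, and the 95% interval of its log2 fold change ran from -0.11 to 0.11.

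**Figure D3:**
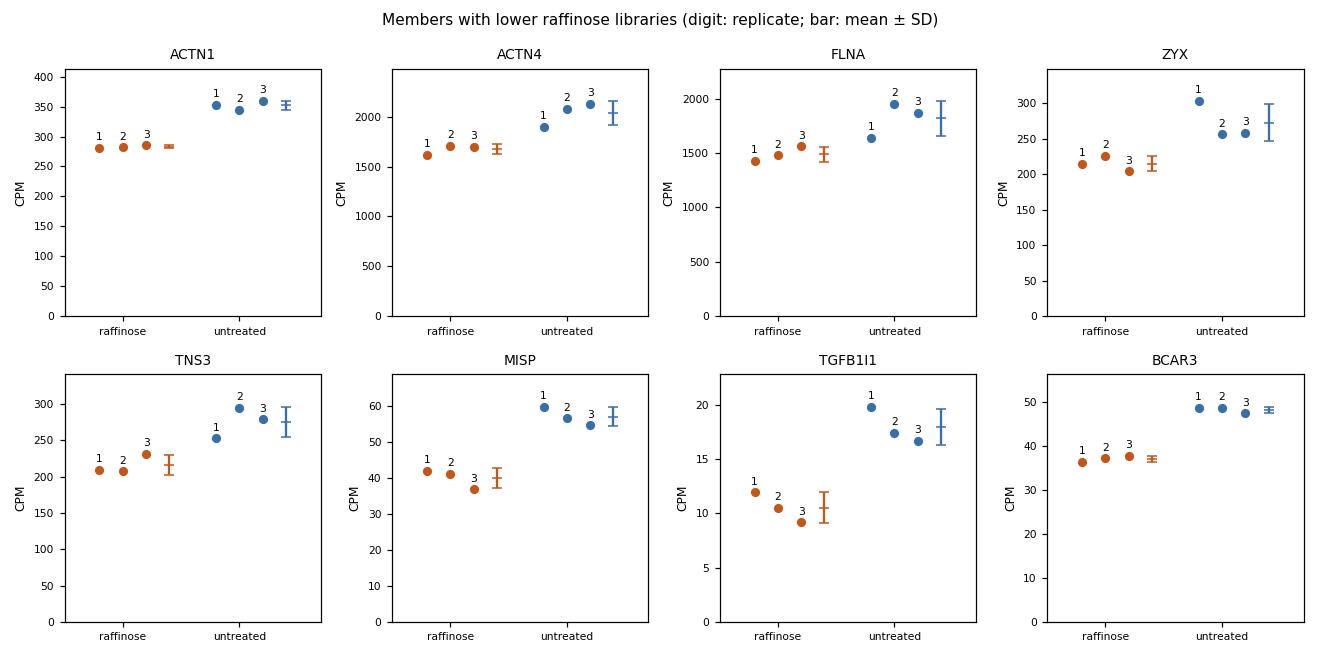
CPM in single libraries (points, numbered by replicate) with mean ± SD (bars, n = 3) for 8 members, raffinose left of untreated, on axes that start at 0. In each panel all raffinose points lie below all untreated points, with ACTN1 and BCAR3 the tightest.

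LIM-domain and actin-assembly proteins mostly had lower values as well. ZYX is the zyxin gene, whose product gathers on strained actin fibres. It was at 215, 226 and 204 CPM with raffinose and at 303, 256 and 258 CPM without. The log2 fold change of ZYX was -0.34 (SE 0.08, edgeR adjusted p = 0.198, DESeq2 adjusted p = 0.0478). TNS3, which encodes tensin-3, was at 209, 207 and 231 CPM with raffinose and at 253, 294 and 279 CPM without (log2 fold change -0.35, SE 0.08, edgeR adjusted p = 0.174, DESeq2 adjusted p = 0.0245). MISP (ENSG00000099812, chromosome 19, 751112 to 764318, plus strand), an actin-bundling protein that also positions the mitotic spindle, was at 41.9, 41.0 and 36.8 CPM with raffinose and at 59.7, 56.5 and 54.5 CPM without. All raffinose libraries were lower in these 3 genes, and MISP had the largest difference of them, a log2 fold change of -0.51 (SE 0.08, edgeR adjusted p = 0.100, DESeq2 adjusted p = 6.4e-05).

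PDLIM1, an alpha-actinin-binding LIM protein, was at 134, 132 and 109.7 CPM with raffinose and at 175, 145 and 166 CPM without (log2 fold change -0.37, SE 0.11, edgeR adjusted p = 0.244). VASP, which elongates actin filaments at adhesions, was at 57.8, 62.6 and 70.4 CPM with raffinose and at 74.2, 70.5 and 82.1 CPM without (log2 fold change -0.25, SE 0.10, edgeR adjusted p = 0.348). In both genes the groups did not overlap, by a narrow gap in VASP. PDLIM7, a LIM protein related to PDLIM1, had overlapping groups with a log2 fold change of -0.17 (SE 0.10).

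TES had a higher mean with raffinose. It encodes testin, a zyxin-binding LIM protein, and was at 84.8, 72.4 and 54.7 CPM with raffinose and at 47.8, 53.1 and 55.1 CPM without. Raffinose replicates 1 and 2 were above all untreated libraries and replicate 3 was within their range. The log2 fold change was 0.44 (SE 0.16, edgeR adjusted p = 0.319).

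At the adhesion rim and in caveolae, the groups overlapped in all 3 members. KANK2, which binds talin and brings microtubules to the adhesion edge, averaged 138 ± 3.08 CPM with raffinose and 141 ± 3.22 CPM without, with a 95% interval of the log2 fold change of -0.15 to 0.10. CAV2, the caveolin-2 gene, averaged 131 ± 2.78 and 134 ± 3.26 CPM with and without raffinose (interval -0.15 to 0.10). CAV1, its neighbour on chromosome 7 and the main coat protein of caveolae, was at 215, 430 and 417 CPM with raffinose and at 405, 421 and 450 CPM without. Raffinose replicate 1, in which ITGA6 was also low, lay below all others, and without it the log2 fold change of -0.27 (SE 0.25, edgeR adjusted p = 0.706) became -0.0050.

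**Figure D4:**
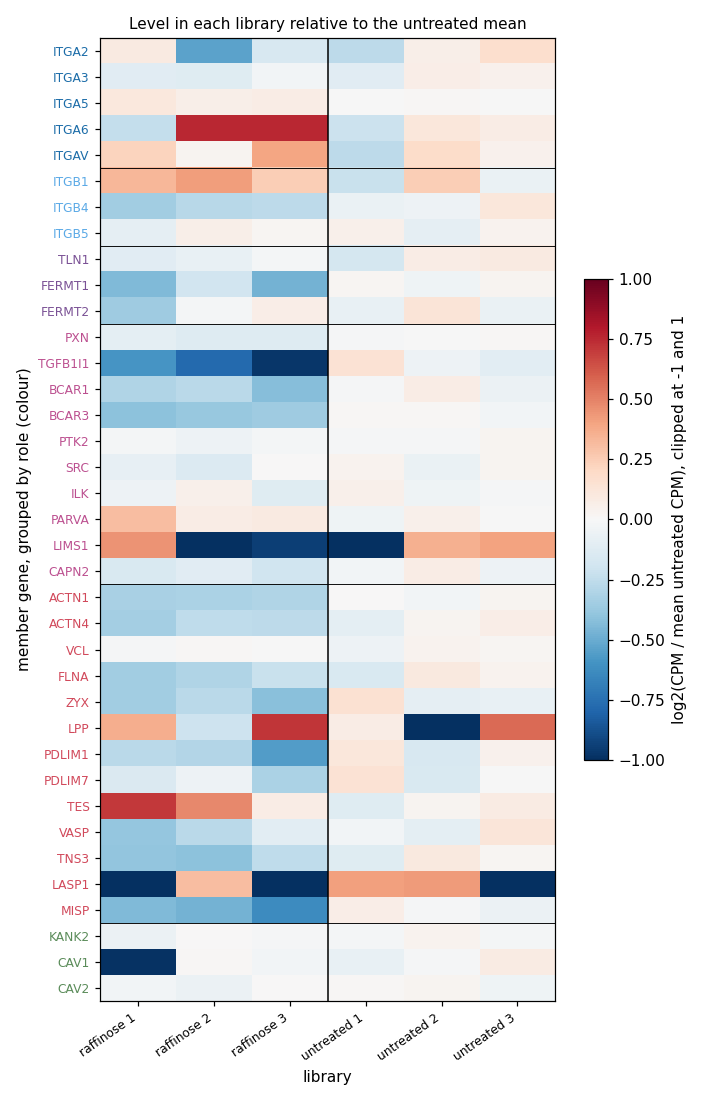
Log2 of the CPM in each library over the untreated mean for the 37 tested members, grouped by role, with raffinose libraries left of the line. Blue of varying depth across all 3 raffinose columns covers the 16 members with non-overlapping lower values and some whose groups overlap, such as ITGA3, TLN1 and PDLIM7, while LASP1, LIMS1, LPP, CAV1 and ITGA6 change colour within a group.

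For 5 members the libraries of a group split by at least 1.8-fold, a threshold set after seeing the values. These were ITGA6, CAV1, LASP1, LIMS1 and LPP, 5 of 37, where 9.82% of 9884 genes with a mean of at least 10 CPM split that far. LASP1, which encodes an actin-binding LIM and SH3 protein, was at 100.3, 436 and 109 CPM with raffinose and at 467, 471 and 116 CPM without. The libraries fell on a low and a high level, with 2 raffinose and 1 untreated library on the low one. The log2 fold change of -0.71 had an SE of 0.74 and an edgeR adjusted p of 0.738, and it ran from -1.75 without raffinose replicate 2 to -0.37 without raffinose replicate 1.

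LIMS1, which encodes the ILK partner PINCH-1, was at 51.9, 17.5 and 19.7 CPM with raffinose and at 15.1, 48.6 and 50.1 CPM without, again on a low and a high level with both groups on each. Its log2 fold change was -0.35 (SE 0.58, edgeR adjusted p = 0.839), and it ran from -1.02 without raffinose replicate 1 to -0.08 without raffinose replicate 2. LIMS1 has close relatives, LIMS3 and LIMS4. LIMS3 was listed at a count of 0 in all libraries and LIMS4 at 0 to 126, beside 969 to 3323 for LIMS1. LPP, a zyxin relative, was at 44.7, 30.2 and 57.2 CPM with raffinose and at 36.7, 16.2 and 51.5 CPM without (log2 fold change 0.34, SE 0.43, edgeR adjusted p = 0.785). Without untreated replicate 2 the log2 fold change of LPP was -0.0013.

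**Figure D5:**
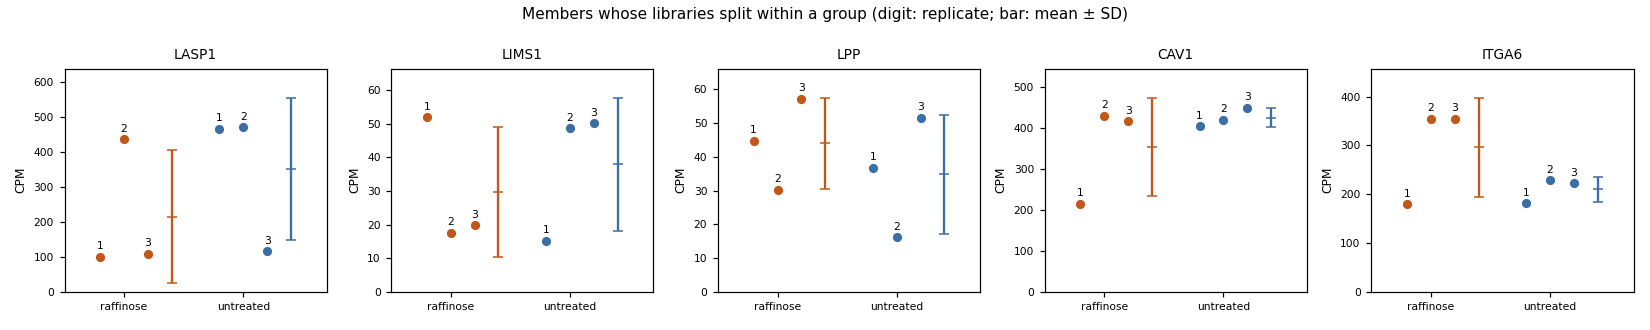
CPM in single libraries (points, numbered by replicate) with mean ± SD (bars, n = 3) for the 5 members that split within a group by at least 1.8-fold, raffinose left of untreated. LASP1 and LIMS1 occupy a low and a high level, and in CAV1 and ITGA6 raffinose replicate 1 stands alone.

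The other genes of the family, taken from textbook knowledge of adhesions, had a median nearer to 0. Of 85 further genes 65 were tested, 30 with a positive and 35 with a negative log2 fold change and a median of -0.03. In 9 all raffinose libraries were lower and in 4 all were higher, which is 13.8% and 6.15% of those tested, beside 10.9% and 10.6% of all genes. edgeR called 0 of the 65. At an unadjusted p under 0.05, 9 were lower and 2 higher, beside 7.08% and 6.21% of all genes. DESeq2 called 5 lower and 1 higher, beside 1.92% and 1.28% of all genes. Whether the members and these genes differ was not tested, and both lists were chosen with earlier results of these data known.

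Among these, the smallest p-values were in a list of 36 genes that joined further actin linkers and LIM proteins with genes of the rim and caveolae. CAVIN1, the caveola coat protein cavin-1, was at 721.5, 740.5 and 715 CPM with raffinose and at 898, 897 and 917 CPM without (log2 fold change -0.32, SE 0.04, edgeR adjusted p = 0.0801, DESeq2 adjusted p = 2.4e-05). MYL9, a regulatory myosin light chain of contractile fibres, was at 82.4, 86.0 and 85.4 CPM with raffinose and at 127, 112 and 114 CPM without (log2 fold change -0.48, SE 0.07, edgeR adjusted p = 0.0925, DESeq2 adjusted p = 2.4e-05). Both separated the groups without passing edgeR's test, which called CAVIN1 lower when only genes with a mean of at least 1 FPKM were tested. SDC4, the adhesion co-receptor syndecan-4, had a log2 fold change of -0.26 (SE 0.06) and RSU1, a PINCH-binding protein, -0.14 (SE 0.06).

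Outside the members, ITGA1 and ITGA10, both collagen-binding alpha chains, had the smallest p-values of the 17 further integrin genes, of which 9 were tested. ITGA1 was at 7.73, 6.97 and 6.95 CPM with raffinose and at 4.66, 4.88 and 4.76 CPM without, all raffinose libraries being higher (log2 fold change 0.60, SE 0.11, edgeR adjusted p = 0.146, DESeq2 adjusted p = 0.00226). ITGA10 had 0.652 ± 0.0858 CPM with raffinose and 1.23 ± 0.298 CPM without (log2 fold change -0.91, SE 0.28, edgeR adjusted p = 0.266).

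Markers of other cells that carry integrins were summed per library. The 6 endothelial markers summed to 0.248 to 0.765 CPM in raffinose libraries and 0.270 to 0.899 CPM in untreated ones. The 9 leukocyte and platelet markers summed to 20.9 to 27.0 CPM with raffinose and 36.8 to 44.3 CPM without, while CD3E, MS4A1 and GP9 were at 0 in every library. Most of that sum came from CD68, also a lysosomal protein of other cells, at 23.3, 23.2 and 16.6 CPM with raffinose and 32.6, 40.8 and 36.9 CPM without (log2 fold change -0.81, SE 0.16, edgeR adjusted p = 0.146, DESeq2 adjusted p = 0.000770). The 8 fibroblast markers summed to 368 to 381 CPM with raffinose and 409 to 432 CPM without, most of it from COL3A1. COL1A1 went the other way, at 42.7, 38.9 and 39.0 CPM with raffinose and 33.9, 33.8 and 34.5 CPM without. The 6 markers of the line itself, mostly KRT8, KRT18 and VIM, summed to 7875 to 8345 CPM with raffinose and 9978 to 11253 CPM without. These sums were lower in all raffinose libraries for the leukocyte, fibroblast and line markers. So was the summed level of the actin linkers, most of it from ACTN4 and FLNA. The part of these markers in the results above was not tested.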

How the data were processed

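Per the labels' protocols, the libraries were made from poly(A) RNA with a dUTP-marked second strand and read as pairs on an Illumina NovaSeq. Tools named, with no role, in the submitters' processing notes are StringTie 1.3.4d, HISAT2 2.0.4, cutadapt 1.9, DESeq2 and edgeR. Build, annotation and strand setting: not given in the sources used here. Gene coordinates are those of the deposited table. All 38 member IDs are in GENCODE 29, 14 of them with identical start and end. The authors deposited, per the file headers, an FPKM value and an estimated count per gene and library. In the FPKM columns a gene without reads is listed at 0.0001. The deposited expected counts are whole numbers, so rounding changed none, and counts of 4 are far more frequent than 3 or 5 (1382, 456 and 286 genes in raffinose replicate 1), so they seem to overstate fragments.

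All 6 libraries were compared with edgeR 4.0.16 (R 4.3.3). After filterByExpr (minimum count 10) and TMM scaling, glmQLFit and glmQLFTest were run over 18863 genes with Benjamini-Hochberg adjustment and a threshold of 0.05. Each fold change is raffinose over untreated, on the log2 scale, and SE is its standard error in that fit. The fits were tested on data simulated from the means and spread of these libraries. Of 67 genes changed 1.5-fold there, edgeR called 1.49% and DESeq2 16.4%, so a missing call at such folds says little. Among the unchanged genes edgeR made 6 false calls and DESeq2 56. Alternatives were DESeq2 1.42.0, limma 3.58.1 on log2(FPKM + 1), other scaling and filters, counts divided by 4, the replicate block and each library left out. The members and lists were chosen with earlier results of these data known. All 38 members are named, and of the further genes the 2 with the smallest p in each of 3 lists. Promoters were matched by symbol, and ITGA3, ITGB4, FERMT1, PTK2, SRC and PARVA had no match. Of the leukocyte markers chosen, 1 is not reported here.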

Additional observations from a re-analysis of the deposited data

How the results depend on the processing

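Of the 37 tested members, 29 kept their direction under all 13 alternatives, and none was called with a library left out. The counts that moved by over 1.5 times did so as follows. DESeq2 called 9 members lower, 5 further genes lower and 1 higher, and 363 and 242 of all genes lower and higher, against 16 and 7 by edgeR. A filter at a mean of 1 FPKM gave 27 lower and 15 higher, with 1 further gene lower (CAVIN1), among 12012 genes. With a library left out, all genes called higher ranged from 0 to 15 and lower from 4 to 13, the 0 and 4 in the fit that left out untreated replicate 3 (1969 genes with an unadjusted p under 0.05). The cause was not tested.

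A replicate block in edgeR left 0 calls higher and 0 calls lower over all genes, and 1932 genes had an unadjusted p under 0.05. Deviations of same-numbered libraries correlated at -0.01, -0.03 and 0.01, so no pairing was seen.

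The 8 members whose direction turned had fold changes near 0 or a split library. On the log2 scale VCL had 0.015 at 1 FPKM, 0.0362 by limma and 0.00022 with the block, and ITGB5 0.0109 at 1 FPKM and 0.0319 by limma. By limma PTK2 had 0.00386, KANK2 0.0122 and CAV2 0.00957. With libraries left out VCL ranged from -0.028 to 0.017, ITGB5 from -0.0459 to 0.037, FERMT2 from -0.178 to 0.0287, ILK from -0.0848 to 0.00161 and LPP from -0.00126 to 0.734. The smallest adjusted p of any member was 0.0929 in edgeR, 0.0638 at 1 FPKM and 0.108 to 0.240 with libraries left out.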
